A study of Mus musculus with 6 samples.

Results

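The transcripts of 10 genes of the NRF2 and glutathione antioxidant system were followed in 6 mouse melanomas: Nfe2l2 and Keap1, the factor and its repressor, the target genes Hmox1 and Nqo1, and the glutathione and thioredoxin genes Gclc, Gclm, Gsr, Gpx4, Txnrd1 and Srxn1. They were chosen by symbol, each matched 1 of the 55536 gene rows, and all 10 had enough counts to be among the 15696 genes tested. The tumors came from B16, a melanoma line of C57BL/6 mice, grown under the skin of C57BL/6J mice from about 100000 injected cells and taken on day 13. In 3 tumors the cells carried a vector control, and in the other 3 ATM, a kinase of the DNA damage response, was knocked out (ATM KO). The sources used here do not give the way of disrupting ATM, whether the lines were clones, or whether every tumor had its own mouse. The p-values thus reflect only the variation among these 6 tumors, and an effect of ATM loss cannot be told apart from other differences of the cell line. The host mice are not labelled as carrying any ATM change.

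NRF2, encoded by Nfe2l2, is a transcription factor that is held at low protein levels by KEAP1, which presents it to a CUL3 ubiquitin ligase. Oxidants and electrophiles modify KEAP1, NRF2 then accumulates, pairs with a small MAF protein and binds antioxidant response elements near genes of glutathione synthesis, thioredoxin reduction, NADPH supply and detoxification. Glutathione is made from glutamate, cysteine and glycine, and serves as the electron donor for glutathione peroxidases and the conjugating partner for glutathione S-transferases. Because NRF2 is controlled mainly through protein stability, the amount of its own mRNA is not a measure of its activity.

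Promoter sequence in RefSeq (GRCm38.p6) was at hand for 7 of the 10 genes, in 12 windows of 250 bases before a transcription start. None was at hand for Hmox1, Gclc and Gsr, so these were not searched. The element was searched on both strands as TGACNNNGC and as TGAGNNNGC, the second form being added after the first search. At least 1 of the forms was in 4 of the 12 windows, 1 each of Nfe2l2, Gclm, Txnrd1 and Srxn1, against 23% of all 32851 windows of the same length. Srxn1 and Nqo1 are shown because these are the members whose levels were higher in every ATM KO tumor than in any control tumor, and Gclm because its partner Gclc fell while it did not. Each runs 5′ to 3′ on the strand of its gene, and capitals mark matches to either form.
Srxn1, plus strand, chr2:152105274-152105523: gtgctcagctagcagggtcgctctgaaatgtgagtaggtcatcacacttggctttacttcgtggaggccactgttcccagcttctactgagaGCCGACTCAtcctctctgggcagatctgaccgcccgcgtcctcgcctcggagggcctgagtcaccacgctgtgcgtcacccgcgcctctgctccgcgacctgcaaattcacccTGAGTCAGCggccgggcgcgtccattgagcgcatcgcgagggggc
Gclm, plus strand, chr3:122245307-122245556: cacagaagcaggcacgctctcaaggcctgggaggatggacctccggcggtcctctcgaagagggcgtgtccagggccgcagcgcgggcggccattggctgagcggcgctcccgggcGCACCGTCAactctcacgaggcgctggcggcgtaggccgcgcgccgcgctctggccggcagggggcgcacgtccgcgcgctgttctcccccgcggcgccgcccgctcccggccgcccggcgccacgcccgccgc
Nqo1, minus strand, chr8:107403206-107403455: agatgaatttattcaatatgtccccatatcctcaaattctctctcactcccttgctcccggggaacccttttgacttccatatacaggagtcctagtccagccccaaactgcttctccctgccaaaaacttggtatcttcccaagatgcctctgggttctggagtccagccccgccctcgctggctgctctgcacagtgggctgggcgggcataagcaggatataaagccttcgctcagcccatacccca
Srxn1 held the G form at 45 to 37 bases before its start, as TGAGTCAGC, and again on the other strand at 158 to 150 bases before it, as TGAGTCGGC. The nearer match overlaps an AP-1 site (TGACTCA, read on the opposite strand), which is present in 4.46% of all windows. Gclm held the C form on the opposite strand, as TGACGGTGC, at 134 to 126 bases before its start, and the Nqo1 window held neither form. A match describes letters in the window and does not show binding. A window without a match does not show that a gene lacks the element, because sequence outside the 250 bases was not searched.

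Counts on genes ranged from 22101124 to 29037715 per library. Markers of the melanocyte lineage summed to 19582 to 28132 CPM (counts per 1000000 counts on genes, scaled by TMM) in every tumor, so transcripts of pigment cells were abundant in all 6. Tissue markers varied between tumors within a group, skeletal muscle from 22.6 to 8018 CPM in the control group and from 650.2 to 7940.5 CPM in the ATM KO group. Vector control tumor 1 stood apart in its low fibroblast (276 CPM, against 1319.6 to 2994 in the other 5) and macrophage transcripts (450.02 CPM, against 849.7 to 1294). Some markers separated the groups. Over all genes tested, every ATM KO tumor lay above every control tumor for 14.3% of genes and below every one for 15.4%. T cell markers summed to 31.5, 39.5 and 42.0 CPM in control and to 91.6, 44.0 and 65.5 CPM in ATM KO tumors, and 4 of the 7 were higher in every ATM KO tumor, with none passing the test. The endothelial genes Cdh5, Cldn5 and Pecam1 were lower in every ATM KO tumor, while Vwf of the same list was higher in every one (log2 fold change 0.51, edgeR adjusted p = 0.202). None of these endothelial genes passed. The 7 endothelial markers summed to 181 to 313 CPM in control and 184 to 211 CPM in ATM KO tumors. Dct, a pigment enzyme gene, fell from 8511 ± 1702 to 5074 ± 64.0 CPM (edgeR adjusted p = 0.0434). Mitf (log2 fold change 0.15, adjusted p = 0.357) and Slc45a2 (0.34, 0.135) of the same list were higher in every ATM KO tumor without passing. Of the 8 melanocyte markers, 5 had a positive and 3 a negative log2 fold change. The part of these markers in the results on the 10 genes and the related lists was not tested. Atm did not differ beyond its spread (105 ± 8.09 and 112 ± 18.0 CPM, SD, n = 3 each; edgeR adjusted p = 0.707), and counts over the whole gene do not check the knockout.

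Of the 10 genes, 1 fell in ATM KO tumors, Gclc, and none rose in the edgeR test (before adjustment, p was under 0.05 for 2 higher and 1 lower; DESeq2 called Gclc lower and Nqo1 higher, limma-voom Gclc lower). Over all genes tested 2.75% were lower, 2.21% higher and 4.96% changed in either direction at the same threshold, an adjusted p below 0.05, so 1 call among 10 genes is not a result about the set. An unadjusted p under 0.05 was reached by 23% of all genes tested (10.6% higher, 12.3% lower), so 3 of 10 is near that background too. The median log2 fold change of the 10 was -0.02, beside -0.01 over all genes tested. Levels in the groups did not overlap for 4 of the 10, Nqo1 and Srxn1 being higher and Gclc and Keap1 lower in ATM KO tumors, while this held for 29.7% of all genes tested. With library size as the only scaling the calls over all genes were 504 higher and 356 lower instead of 347 and 431, and the calls among the 10 stayed at 1 lower.

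**Figure D1:**
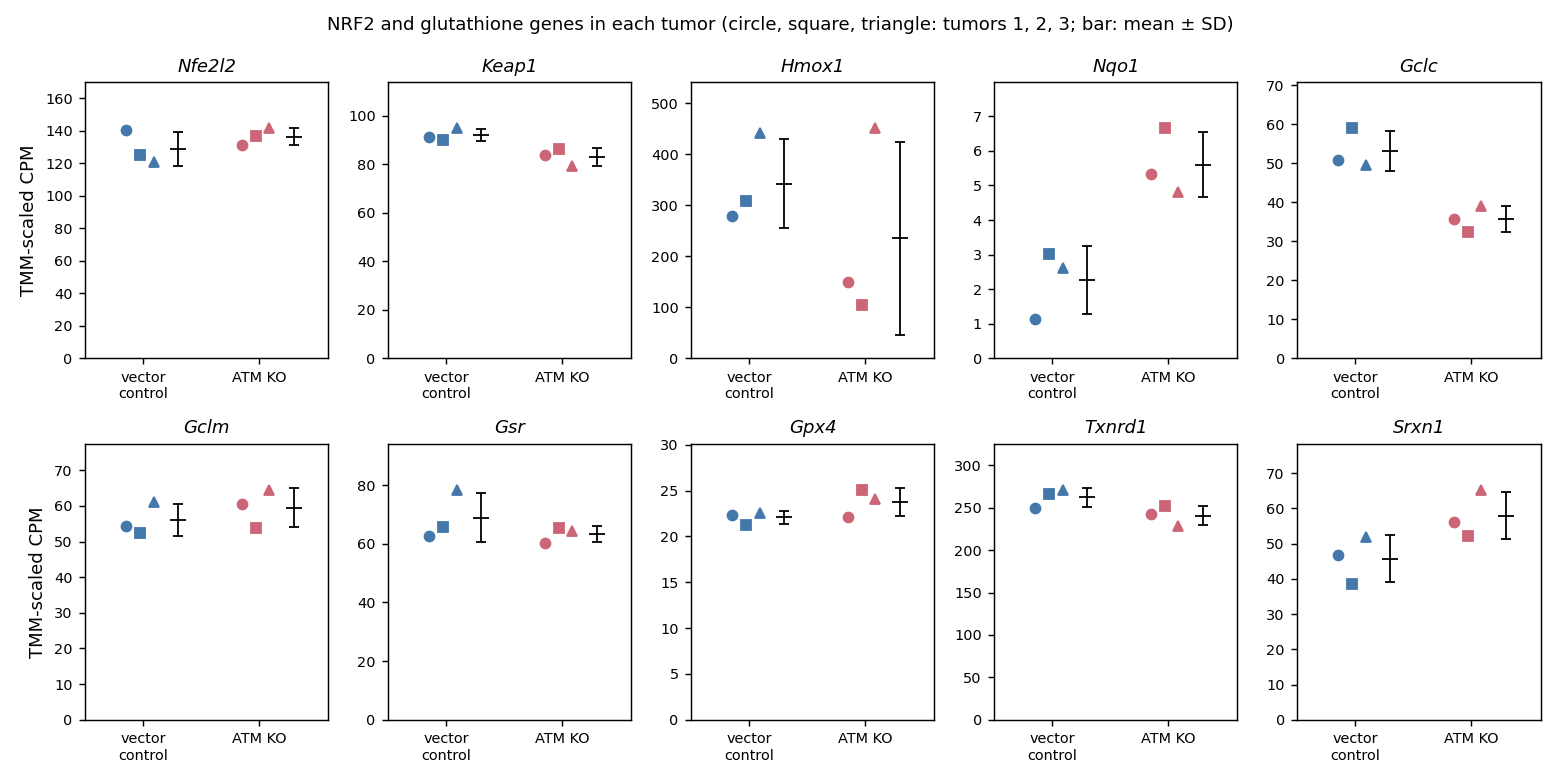
TMM-scaled CPM (y axis, from 0, its range set per gene) of each of the 10 genes in vector control (blue) and ATM KO (red) tumors; circles, squares and triangles are tumors 1, 2 and 3, and the black bar is the mean ± SD. Gclc and Keap1 are lower and Nqo1 and Srxn1 higher in all 3 ATM KO tumors, and Hmox1 spans 104 to 450.5 CPM within the ATM KO group.

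Nfe2l2 and its repressor moved little. Nfe2l2 (chromosome 2, 75675513 to 75704641, GRCm38) was read at 140.2, 125 and 121 CPM in vector control tumors 1, 2 and 3 and at 131, 136 and 141 CPM in ATM KO tumors 1, 2 and 3. The groups overlapped, and the log2 fold change of 0.08 ± 0.08 (SE; 95% interval -0.11 to 0.27; edgeR adjusted p = 0.61) did not pass. Keap1 (chromosome 9, 21229730 to 21239361) was at 91.2, 90.1 and 94.8 CPM in control and 83.9, 86.2 and 79.1 CPM in ATM KO tumors. Every ATM KO tumor lay below every control tumor, yet the log2 fold change of -0.15 ± 0.06 (95% interval -0.30 to 0.0034; edgeR adjusted p = 0.227) did not pass. Keap1 shares 510 bases of its exons with the antisense gene Gm16754. The sources used here do not say whether counting used strand, so how reads in these bases were counted is uncertain.

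The ratio of the repressor's mRNA to that of the factor, within each tumor, does not depend on how libraries are scaled. Per kilobase of exon, Keap1 stood at 0.526, 0.582 and 0.635 of the Nfe2l2 level in vector control tumors 1, 2 and 3 and at 0.518, 0.511 and 0.453 of it in ATM KO tumors. All ATM KO ratios were below the control ratios, the nearest values being 0.526 and 0.518, and the mean log2 ratio differed by -0.23 (-0.79 ± 0.14 against -1.02 ± 0.11, SD, n = 3 each; two-sided exact permutation p = 0.1, the smallest that 3 against 3 tumors can give). This is a ratio of mRNAs and not of the proteins.

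Gclc, which encodes the catalytic subunit of glutamate-cysteine ligase, the enzyme of the rate-limiting step of glutathione synthesis, fell. Gclc (chromosome 9, 77754535 to 77794485) was at 50.9, 59.0 and 49.6 CPM in vector control tumors and at 35.8, 32.4 and 39.1 CPM in ATM KO tumors. The highest ATM KO tumor lay below the lowest control tumor, and the level was 1.49-fold higher in control tumors (53.1 ± 5.12 against 35.8 ± 3.36 CPM; log2 fold change -0.57 ± 0.10, 95% interval -0.82 to -0.32; edgeR adjusted p = 0.0384). The call ended without vector control tumor 2 (-0.46, adjusted p = 0.134) or 3 (-0.61, 0.073) and without ATM KO tumor 1 (-0.57, 0.153), 2 (-0.51, 0.118) or 3 (-0.63, 0.0682), and held without vector control tumor 1 (-0.60, 0.0358). In tumor tissue, fewer cells that express a gene and less of its RNA per cell cannot be told apart. Genes within 5 Mb of Gclc had a median log2 fold change of -0.16 over 51 genes, of which 1 was called lower.

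Gclm, the modifier subunit that raises the affinity of the ligase for glutamate and lowers its feedback inhibition by glutathione, did not move with its partner. Gclm (chromosome 3, 122245557 to 122270732) was at 54.4, 52.4 and 61.0 CPM in control and 60.4, 53.7 and 64.5 CPM in ATM KO tumors. The groups overlapped (log2 fold change 0.09 ± 0.10, 95% interval -0.14 to 0.32; edgeR adjusted p = 0.649). Small stretches of its exons are shared with the pseudogene Gm6061 (244 bases) and the transcript Gm17494 on the other strand (296 bases).

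Per kilobase of exon, Gclc exceeded Gclm in every control tumor, by 1.56, 1.88 and 1.36 times in tumors 1, 2 and 3, and was close to it in ATM KO tumors, at 0.991, 1.01 and 1.01 times. The log2 ratio fell by 0.66 (0.67 ± 0.24 in control and 0.0045 ± 0.016 in ATM KO tumors, SD, n = 3 each), and the groups did not overlap (two-sided exact permutation p = 0.1, the smallest possible). Leaving out any 1 tumor kept this difference between -0.77 and -0.54. The ATM KO tumors were closer to each other in this ratio than the control tumors. For this ratio and that of Keap1 to Nfe2l2, the length is the union of all annotated exons and not that of the transcripts present. The absolute ratios are therefore approximate, while these lengths cancel in the difference between groups.

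**Figure D2:**
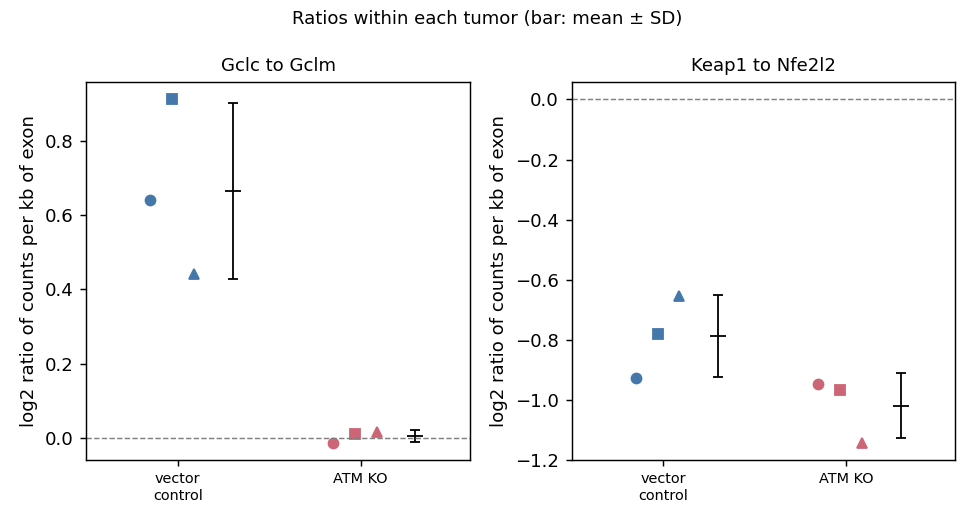
Log2 ratio of counts per kilobase of exon (y axis) of Gclc to Gclm and of Keap1 to Nfe2l2 in each tumor, by group; circles, squares and triangles are tumors 1, 2 and 3, and the black bar is the mean ± SD. The Gclc to Gclm ratio lies between 0.44 and 0.91 in the control tumors and between -0.01 and 0.02 in the ATM KO tumors. The dashed line at 0 marks equal counts per kilobase of exon.

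Nqo1, which encodes a quinone reductase widely used as a readout of NRF2, was the member with the lowest level and the largest fold change. Nqo1 (chromosome 8, 107388225 to 107403206) had 26, 66 and 63 counts in vector control tumors and 130, 186 and 141 counts in ATM KO tumors, or 1.15, 3.01 and 2.60 against 5.33, 6.65 and 4.82 CPM. All ATM KO tumors were above all control tumors, the fitted difference being 2.48-fold, but it did not pass in edgeR (log2 fold change 1.31 ± 0.37, 95% interval 0.42 to 2.20; adjusted p = 0.0991). DESeq2 called it (1.31, adjusted p = 0.015), and so did edgeR without vector control tumor 1, its lowest tumor (0.996, adjusted p = 0.0482), while over all alternatives the adjusted p ran from 0.015 to 0.268. The median log2 fold change of the 121 genes within 5 Mb was -0.30, with 17 called lower and 0 higher, so Nqo1 differed in sign from most of its neighbors.

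Hmox1, which encodes the inducible heme oxygenase that splits heme into iron, carbon monoxide and biliverdin, varied most among the ATM KO tumors. Hmox1 (chromosome 8, 75093621 to 75100589) was at 278, 307 and 441 CPM in vector control tumors 1, 2 and 3 and at 150.3, 104 and 450.5 CPM in ATM KO tumors 1, 2 and 3. ATM KO tumor 3 held the highest level of all 6 and ATM KO tumor 2 the lowest, a 4.35-fold range, and the coefficient of variation in that group, 80.2%, exceeded that of 98.2% of genes tested. The log2 fold change of -0.54 ± 0.58 therefore had a 95% interval from -2.00 to 0.91 (edgeR adjusted p = 0.656). Without ATM KO tumor 3 it was -1.43 (adjusted p = 0.0835), and without ATM KO tumor 2 it was -0.20 (0.90).

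Hmox1 is also made by macrophages that clear red cells, and red cells carry heme, so marker levels are given beside it. The 10 macrophage markers summed to 450.02, 1005 and 1294 CPM in control tumors 1, 2 and 3, against 917, 849.7 and 1129 CPM in ATM KO tumors 1, 2 and 3, and none of them was at 0 in all tumors. The 6 erythroid markers summed to 575, 61.8 and 733 CPM in the control group and to 20.03, 8.90 and 454 CPM in ATM KO tumors. Tumor 3 of each group thus held the most erythroid and macrophage transcripts and the most Hmox1 of its group, whereas vector control tumor 1 combined many erythroid and few macrophage transcripts with 278 CPM of Hmox1. The 9 genes of the hypoxia and RNA handling list summed to 1021, 685 and 553 CPM in control and 319, 337 and 838 CPM in ATM KO tumors. The part of these markers in the Hmox1 levels was not tested.

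**Figure D3:**
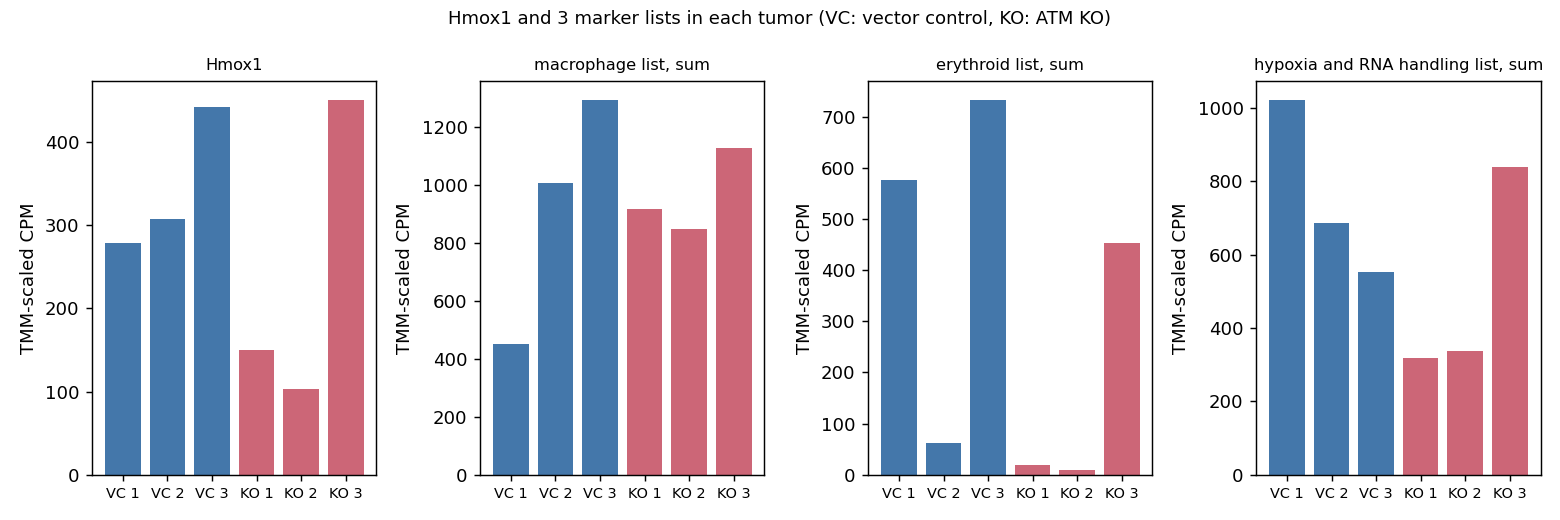
Hmox1 and the summed levels of 3 marker lists (macrophage, erythroid, hypoxia and RNA handling) in TMM-scaled CPM (y axes, from 0) in each tumor; blue bars are vector control tumors and red bars ATM KO tumors. Hmox1 is highest in tumor 3 of each group, at 441 and 450.5 CPM.

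Srxn1, which encodes the sulfiredoxin that restores overoxidized peroxiredoxins, was higher in every ATM KO tumor without passing the test. Srxn1 (chromosome 2, 152105516 to 152111376) was at 46.8, 38.5 and 51.8 CPM in vector control tumors and 56.2, 52.2 and 65.3 CPM in ATM KO tumors. The lowest ATM KO tumor lay just above the highest control tumor, 52.2 against 51.8 CPM, and the log2 fold change was 0.34 ± 0.13 (95% interval 0.02 to 0.66; edgeR adjusted p = 0.196). Genes within 5 Mb of Srxn1 had a median log2 fold change of 0.27 over 117 genes, 12 of them called higher.

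Neither of the reductase genes passed the test, nor did the gene of the lipid peroxidase. Gsr, which regenerates glutathione from its disulfide, was at 62.6, 65.7 and 78.4 CPM in control and 60.4, 65.4 and 64.4 CPM in ATM KO tumors (log2 fold change -0.12 ± 0.10, 95% interval -0.36 to 0.12; edgeR adjusted p = 0.537). Txnrd1, the cytosolic thioredoxin reductase and a selenoprotein, ran from 249.6 to 271 CPM in control and from 228 to 252 CPM in ATM KO tumors (-0.12 ± 0.07, 95% interval -0.29 to 0.05; adjusted p = 0.37). Gpx4, the selenoprotein that reduces lipid hydroperoxides and protects cells from ferroptosis, ran from 21.3 to 22.6 and from 22.1 to 25.1 CPM (0.11 ± 0.09, 95% interval -0.10 to 0.31; adjusted p = 0.53). In each of the 3 the groups overlapped, and the intervals leave room for changes of the size of their bounds. A processed pseudogene of Gpx4, Gpx4-ps2, lies on the same chromosome, and the counter for reads aligned to several places stands at 0 in all 6 files, so the level of Gpx4 is uncertain.

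**Figure D4:**
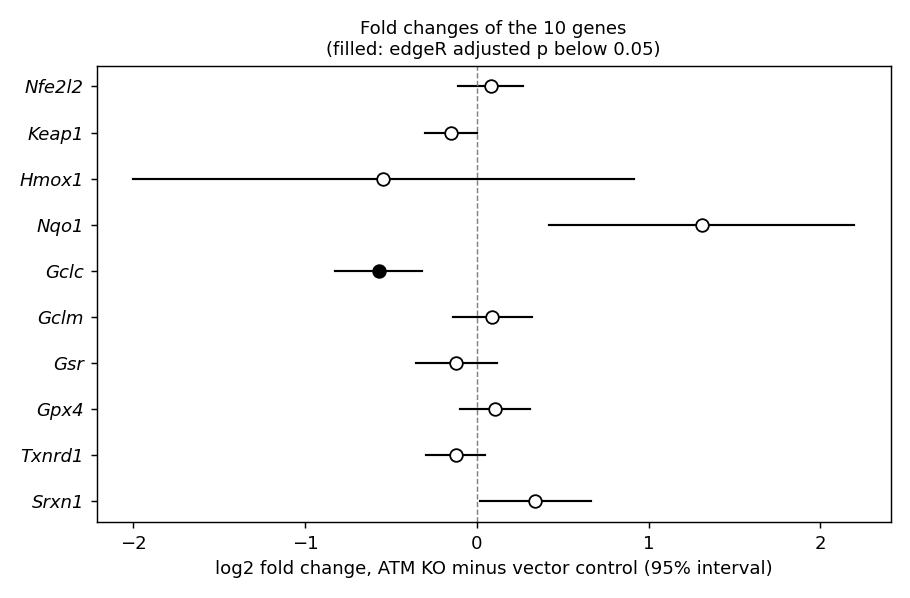
Log2 fold change, ATM KO minus vector control (x axis), of the 10 genes (y axis) with 95% intervals from the edgeR fit; filled points have an adjusted p below 0.05 and the dashed line marks no difference. Gclc alone is filled, and the interval of Hmox1, from -2.00 to 0.91, is the widest.

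Levels of different genes can be set side by side per length, as CPM per kilobase of exon. The length is the union of all annotated exons and not that of the transcripts present, and the level of Gpx4 is uncertain, so the order is approximate. In control tumors the order was Hmox1 (196 ± 49.7), Txnrd1 (37.0 ± 1.58), Nfe2l2 (33.9 ± 2.69), Gsr (25.0 ± 3.04), Keap1 (19.6 ± 0.524), Srxn1 (16.2 ± 2.38), Gclc (14.1 ± 1.36), Gpx4 (12.8 ± 0.41), Gclm (8.89 ± 0.714) and Nqo1 (1.45 ± 0.631). Among neighbors in that order, mean ± SD overlapped for Txnrd1 with Nfe2l2, for Srxn1 with Gclc and for Gclc with Gpx4. In ATM KO tumors Hmox1 (134 ± 108) was again first and Nqo1 (3.60 ± 0.609) last. The mean minus SD of Hmox1 lay below the Nfe2l2 level (35.9 ± 1.38), but per kilobase Hmox1 was above Nfe2l2 in each ATM KO tumor. Nfe2l2 overlapped Txnrd1 (34.0 ± 1.66) in mean ± SD. Srxn1 (20.5 ± 2.38) overlapped both Gsr (23.0 ± 0.966) and Keap1 (17.7 ± 0.768). Gclc (9.49 ± 0.891) then stood beside Gclm (9.46 ± 0.872), below Gpx4 (13.8 ± 0.895).

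Genes on chromosome 8 had a median log2 fold change of -0.26 over all expressed genes other than the member itself, and Hmox1, Nqo1 and Gsr all lie there. The medians were 0.15 on chromosome 2 (Nfe2l2, Srxn1), -0.10 on chromosome 9 (Keap1, Gclc), -0.04 on chromosome 3 (Gclm) and 0.03 on chromosome 10 (Gpx4, Txnrd1). The log2 fold changes of Nqo1 (1.31), Gclm (0.09) and Txnrd1 (-0.12) have the sign opposite to their chromosomes' medians. Those of the other members, among them Keap1 (-0.15) and Nfe2l2 (0.08), have the same sign as the medians. The part of such regional shifts in these values was not tested.

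The wider pathway was read from 9 lists with 156 further genes, 148 of them tested. The lists were chosen with earlier results of these data known, and their counts are given without a test of the lists. In edgeR 12 of the 148 rose and 3 fell (10.1%, beside 4.96% over all genes tested), and their median log2 fold change was 0.05. With library size as the only scaling 17 rose and 2 fell; 14 of these 15 genes were among them, Gstcd no longer passing. All 15 also passed with DESeq2, which called 27 higher and 7 lower, and with limma-voom, which called 13 and 3. With 1 tumor left out, 15 of the 15 passed (vector control tumor 1 left out), 1 (vector control tumor 2), 4 (vector control tumor 3), 0 (ATM KO tumor 1), 1 (ATM KO tumor 2) and 3 (ATM KO tumor 3). All 15 kept their direction each time, which says little, because they were picked for passing with all 6 tumors.

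**Figure D5:**
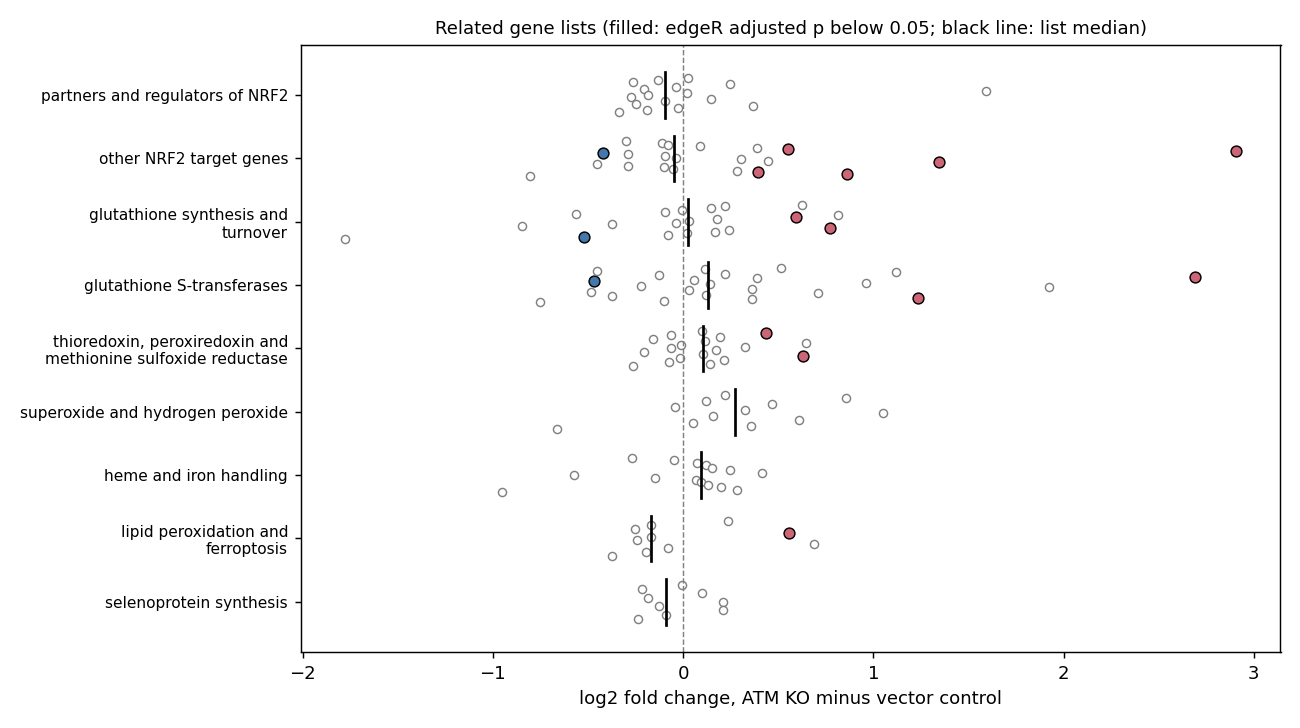
Log2 fold change, ATM KO minus vector control (x axis), of each tested gene of the 9 related lists (y axis; height within a list only spreads the points); red and blue filled points rose and fell with an edgeR adjusted p below 0.05, and black lines are list medians. The other NRF2 target genes hold 6 filled points of 22, the most of any list. Over all genes tested, 4.96% passed at this threshold.

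Other known NRF2 targets changed in both directions. Of 22 tested, 5 rose and 1 fell (27.3%, beside 4.96% over all genes tested), with a median of -0.05. Ephx1, the microsomal epoxide hydrolase, rose from 86.9, 72.3 and 72.1 CPM in control tumors to 209, 175 and 203 CPM in ATM KO tumors (log2 fold change 1.34 ± 0.11; edgeR adjusted p = 0.00784). Abcc2, an exporter of glutathione conjugates, had 6, 8 and 19 counts in control and 88, 103 and 102 in ATM KO tumors (2.91 ± 0.41, adjusted p = 0.0235). The groups stood well apart for both. Aox1, an aldehyde oxidase, rose from 19.9 ± 1.93 to 29.1 ± 1.19 CPM (0.55, adjusted p = 0.0364). Akr1c13, an aldo-keto reductase, rose from 5.46 ± 0.743 to 9.92 ± 0.735 CPM (0.86, adjusted p = 0.0386), and belongs to a family of similar genes, so its reads are uncertain.

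Within the pentose phosphate pathway, which supplies NADPH, the transketolase gene Tkt fell from 458, 476 and 451 to 344, 352 and 338 CPM (-0.42 ± 0.06, edgeR adjusted p = 0.0271). Taldo1, the transaldolase gene of the same branch and named after its values were seen, rose from 91.2 ± 7.23 to 119.9 ± 3.92 CPM (0.39, adjusted p = 0.0449). The genes of these partner enzymes thus changed in opposite directions.

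Of 20 tested genes of glutathione synthesis and turnover 2 rose and 1 fell (15%, beside 4.96% over all genes tested). Gss, the synthetase that adds glycine in the step after the ligase, rose from 19.4, 20.4 and 21.0 CPM in control to 36.2, 34.4 and 33.3 CPM in ATM KO tumors (0.77 ± 0.08, edgeR adjusted p = 0.01), the opposite of Gclc. Hagh, a glyoxalase that releases glutathione from its lactoyl conjugate, rose from 18.0 ± 1.97 to 27.2 ± 1.59 CPM (0.59, adjusted p = 0.0376). Slc3a2, the heavy chain of the cystine importer and other amino acid exchangers, fell from 305 ± 24.1 to 213 ± 9.81 CPM (-0.52, adjusted p = 0.0314). Slc7a11, the light chain of that importer and named after its values were seen, was at 18.8, 54.4 and 39.5 CPM in control and 7.05, 12.9 and 13.0 CPM in ATM KO tumors, which do not overlap, and did not pass (-1.78 ± 0.44, adjusted p = 0.0829).

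Among 24 tested glutathione S-transferase genes 2 rose and 1 fell (12.5%, beside 4.96% over all genes tested). Gstm2, of the mu class, was at 11.0, 7.72 and 9.39 CPM in control and 22.7, 21.1 and 22.2 CPM in ATM KO tumors (1.23 ± 0.14, edgeR adjusted p = 0.0154). Gstm6 rose from 8, 2 and 11 counts to 54, 47 and 60 (2.69 ± 0.49, adjusted p = 0.0376). Gstm7 (1.92, adjusted p = 0.0511) and Gstm5 (0.51, 0.0627), named after their values were seen, did not pass, nor did Gstm1 (28.0 ± 2.34 and 32.6 ± 4.38 CPM, 0.349). The mu genes are similar in sequence, so how reads split between them is uncertain. Gstcd, which has a transferase-like domain, fell from 28.5 ± 2.27 to 20.6 ± 0.988 CPM (-0.47, adjusted p = 0.0439).

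Of 19 tested thioredoxin, peroxiredoxin and methionine sulfoxide reductase genes 2 rose and 0 fell (10.5%, beside 4.96% over all genes tested). Prdx4, the peroxiredoxin of the endoplasmic reticulum, rose from 40.7, 43.6 and 39.1 to 64.4, 65.2 and 61.7 CPM (0.63 ± 0.07, edgeR adjusted p = 0.0126). Txnrd3, a thioredoxin and glutathione reductase related to Txnrd1, rose from 31.1 ± 2.58 to 42.1 ± 1.06 CPM (0.44, adjusted p = 0.0418). Prdx1, a cytosolic peroxiredoxin that sulfiredoxin repairs and named after its values were seen, was at 264, 427 and 449 CPM in control and 599, 596 and 587 CPM in ATM KO tumors and did not pass (0.64 ± 0.20, adjusted p = 0.121), with vector control tumor 1 lowest. Of 10 tested genes of lipid peroxidation and ferroptosis 1 rose and 0 fell (10%, beside 4.96% over all genes tested). Acsl4, which loads polyunsaturated fatty acids onto coenzyme A, rose from 91.7 ± 11.0 to 135 ± 6.78 CPM (0.56, adjusted p = 0.0378).

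None of the genes of 4 lists passed in edgeR. DESeq2 called more genes than edgeR, 920 higher and 1150 lower of all 15696, and its counts in these lists stand beside that. Of 17 tested partners and regulators of NRF2, an unadjusted p under 0.05 was reached by 2 higher and 3 lower (23% of all genes tested reached it), and by DESeq2 2 passed in each direction. The smallest p there belonged to Btrc, a ubiquitin ligase subunit for NRF2 (0.37, adjusted p = 0.0569), and Dcaf11, another ligase subunit (-0.26, 0.0584). Of 12 genes of superoxide and hydrogen peroxide 4 reached an unadjusted p under 0.05, all higher (10.6% of all genes tested were higher at that p), and DESeq2 called 3, also higher. Ccs, the copper chaperone of superoxide dismutase (0.33, adjusted p = 0.0789), and Cyba, a subunit of the phagocyte oxidase (0.86, 0.121), had the smallest p. Cyba is expressed in leukocytes, though not only there, and pan-leukocyte markers summed to 335 CPM in vector control tumor 1 and to 533 to 776 CPM in the other 5. The part of leukocytes in the Cyba level was not tested.

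Of 15 genes of heme and iron handling 3 higher and 1 lower reached an unadjusted p under 0.05. This share is near the 23% of all genes tested. DESeq2 called 2 of the 15 higher and 1 lower (920 and 1150 of all 15696 genes). The metal transporter Slc11a2 (0.42, edgeR adjusted p = 0.055) and the heme transporter Slc48a1 (0.28, 0.106) had the smallest p. Of 9 genes of selenoprotein synthesis 1 higher and 1 lower gene reached an unadjusted p under 0.05, Scly (0.21, edgeR adjusted p = 0.121), which frees selenium from selenocysteine, and Sepsecs (-0.18, 0.171), which makes selenocysteine on its tRNA, and DESeq2 called 1 higher.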

How the data were processed

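RNA of 6 tumors was sequenced, 3 per group, 1 library each. Each deposited file lists raw counts of 1 library by gene; Trim Galore, cutadapt, STAR, SAMtools and HTSeq and the builds GRCm38 and mm10 are named per the submitters' processing notes, without versions, roles or order. Rows naming no gene were left out (reads outside genes 16.7% to 18.2%, ambiguous 1.21% to 1.38% of the reads listed). All 55536 identifiers matched GENCODE M21, which gave coordinates and exon lengths (union of exons). Genes were filtered with filterByExpr (minimum count 10, total 15), scaled by TMM (factors 0.958 to 1.03) and tested with the quasi-likelihood test of edgeR 4.0.16, robust, in R 4.3.3, with Benjamini-Hochberg adjustment over all 15696 genes and a threshold of 0.05. SE is the log2 fold change over the root of F. The common biological coefficient of variation was 27.6%. Alternatives used DESeq2 1.42.0, limma-voom (limma 3.58.1) and those in the closing section. The fit was tested on simulated data. No pair within a group matched within sampling noise (chi-square over its degrees of freedom 19.1 to 72.3), so all 6 libraries entered as separate samples. Members and lists were chosen with earlier results of these data known. Text names all 10 members, the called genes of each list (the 5 with the smallest p if more), or the 2 with the smallest p; other names are said to be chosen afterwards.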

Additional observations from a re-analysis of the deposited data

How the results depend on the processing

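No fold change of the 10 genes changed sign in 17 alternatives each. The group differences of both ratios kept their sign without each tumor, which could not come out otherwise because the groups did not overlap. The count of members higher in ATM KO tumors, 0, became 1 with DESeq2 and at a threshold of 0.10, and was 0 to 1 with 1 tumor left out. The count lower, 1, became 0 at a threshold of 0.01 and with a 1.5-fold minimum, and was 0 to 1 with 1 tumor left out. Over all genes, DESeq2 called 920 higher and 1150 lower, a threshold of 0.01 left 26 and 22, 0.10 gave 783 and 916, a 1.5-fold minimum 206 and 190, and leaving out 1 tumor gave 0 to 587 higher and 2 to 622 lower. Of the related lists, DESeq2 called 27 higher and 7 lower, a threshold of 0.01 left 1 and 0, 0.10 gave 23 and 5, a 1.5-fold minimum left 0 lower, at least 1 CPM in 3 libraries gave 20 higher, and leaving out 1 tumor gave 0 to 16 higher and 0 to 4 lower. The causes were not tested. Leaving out both tumors numbered 3, an alternative chosen after seeing the data, gave Hmox1 -1.19 (edgeR adjusted p = 0.096).

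Nothing in the labels says that a replicate number pairs tumors, and same-numbered tumors did not deviate together (correlations 0.04, -0.27 and -0.42; 0 of 3 control and 1 of 3 ATM KO tumors correlated best with their own number). With the replicate number as a block, 0 genes were called higher and 0 lower, among them 0 members and 0 genes of the related lists, and Gclc was at -0.57 (edgeR adjusted p = 0.148). Nqo1, Abcc2 and Gstm6 rest on low counts in control tumors (26 to 66, 6 to 19 and 2 to 11), and Hmox1 varied widely between tumors of a group.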
